A study of Mus musculus with 18 samples.

Results

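Matrix metalloproteinases (MMPs) and the tissue inhibitors of metalloproteinases (TIMPs) were followed through 18 expression arrays of mouse embryonic stem cells. The genes described are Mmp2, Mmp3, Mmp9, Mmp10, Mmp11, Mmp13, Mmp14, Timp1, Timp2 and Timp3. They were taken by name, and were chosen with earlier results of these data known. Every probe set that the platform's annotation assigns to them was used, which gave 22 of 45101 probe sets and 10 of the 18193 genes with a probe set of a single symbol. Mmp3, Mmp10, Mmp11, Mmp13 and Timp1 had 1 probe set each, Mmp2 and Mmp9 had 2, Mmp14 had 3, Timp3 had 4 and Timp2 had 6.

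MMPs are zinc-dependent endopeptidases that are made as inactive proenzymes and cut collagens, proteoglycans, cytokines and other proteinases outside the cell. TIMPs are small secreted proteins that occupy the active site of the mature enzymes, and Timp2 also bridges proMmp2 to Mmp14 at the cell surface, where Mmp14 activates it. In the early embryo, MMPs and TIMPs are best known from implantation, from trophoblast and parietal endoderm, and from mesenchymal cells that remodel matrix.

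All 18 samples, the knockout cells included, carry the label of the CGR8 line and of growth with serum and LIF, in 6 groups of 3 biological replicates. In 4 groups the cells had been transfected by lipofection, with Foxd3, with CA-NFATc3, with both plasmids, or with the empty vector. Foxd3 is a forkhead transcription factor of pluripotent cells, and the prefix of CA-NFATc3 is taken here to mean constitutively active, a form of the factor NFATc3 that no longer depends on calcineurin. The remaining 2 groups were Foxd3 conditional knockout cells (Foxd3 fl/fl:Cre-ERT), given tamoxifen for 2 days or DMSO (0 days of tamoxifen). All 6 knockout arrays carry the floxed alleles and the tamoxifen-dependent Cre. The sources used here do not state from which cells the knockout was derived beyond that label, which promoter drives Cre, how many clones were used, whether feeder cells were present or how long after transfection RNA was taken. A group of cells of the same line without floxed alleles given tamoxifen was not analysed here, so tamoxifen itself and the deletion of Foxd3 cannot be told apart. The RNA is of whole cultures, in which fewer cells of a type and less RNA per cell cannot be told apart.

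The values are MAS5 signals on a linear scale, scaled by the authors so that each array's trimmed mean is 500. The median signal was 73.0 to 80.7 on the knockout arrays and 55.2 to 67.1 on the transfected ones. Pearson correlations of replicates across probe sets, on the log2 scale, were 0.981 to 0.988. An offset of 32 was added to each signal before taking log2, and a gene was tested where at least 3 arrays of the fit reached 65.8, the median of all deposited values. Changes are log2 differences ± SE from limma with 3 arrays per group, folds are of the signal plus 32, and calls needed an adjusted p (Benjamini-Hochberg over all genes tested) under 0.05. The number of arrays limits the precision, and a p measures only the spread between these biological replicates. Replicate numbers did not enter the main tests. Signals of different probe sets are not on one scale, and levels of different genes were not compared. Sums over a marker list add signals of different probe sets, so that bright probe sets weigh most in them.

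Foxd3 and Nfatc3 were read first, as a check of the labels. Foxd3 has a single probe set. It averaged 237 ± 5.95 in the arrays labelled Foxd3 (SD, n = 3 here and below), 234 ± 37.7 in those labelled with both and 451 ± 38.6 with CA-NFATc3, against 443 ± 55.9 with the vector. The signal was thus lower in the arrays labelled as overexpressing it (log2 change -0.81 ± 0.13, limma adjusted p = 0.00169), and directions from the Foxd3 arrays hold for their labels only. With tamoxifen it averaged 31.4 ± 29.6, against 219 ± 25.9 with DMSO, the direction of the label. All 3 tamoxifen arrays lay under 65.8, so the level was at least 3.31-fold lower (adjusted p = 0.000146). Nfatc3, also read by 1 probe set, averaged 1732 ± 58.5 with CA-NFATc3 and 1723 ± 23.9 with Foxd3, against 1581 ± 31.4 with the vector. The change with CA-NFATc3 was 0.13 ± 0.06 and did not pass (adjusted p = 0.352), so the label CA-NFATc3 was not borne out by this probe set either, and directions from those arrays too hold for their labels only. Whether the probe set reads the plasmid's transcript was not tested. The embryonic stem cell label was borne out by 10 of 10 stem cell markers, whose mean signals lay above 65.8 in all 6 groups.

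Most of the 10 genes had higher signals in the DMSO arrays of the knockout cells than in the transfected cells. Mmp3, Mmp9, Mmp10 and Mmp13 stayed below 65.8 in all 12 arrays of transfected cells, with highest signals of 48.6, 62.3, 36.4 and 30.4, and were not tested there. In the knockout cells the main probe set of all 10 genes lay above 65.8 in all 6 arrays. The DMSO arrays lay above every transfected array for the main probe sets of Mmp2, Mmp3, Mmp9, Mmp10, Mmp11, Mmp13, Timp2 and Timp3, and overlapped them for Mmp14 and Timp1. Further probe sets of Timp2 and Timp3 were divided, and several dim ones overlapped the transfected arrays. The share of all genes for which this held was not counted, so it is not read as particular to these genes. Array medians were also higher on the knockout arrays. The 2 sets of cells were fitted separately and no test was made between them. Among the main probe sets in the transfected cells, that of Timp2 had the clearest order of group means, CA-NFATc3 above both above Foxd3 above vector. Of neighbours in this order only Foxd3 and vector overlapped, and the arrays with both overlapped those of the vector too. For the main probe sets of the other 5 genes tested there, all neighbours in the order of the 4 transfected groups overlapped. The order depended on the probe set. The further Mmp2 probe set had both above Foxd3 above CA-NFATc3 above vector, and of these neighbours only CA-NFATc3 and vector overlapped. In a further Timp2 probe set the arrays with CA-NFATc3 and with both overlapped.

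**Figure D1:**
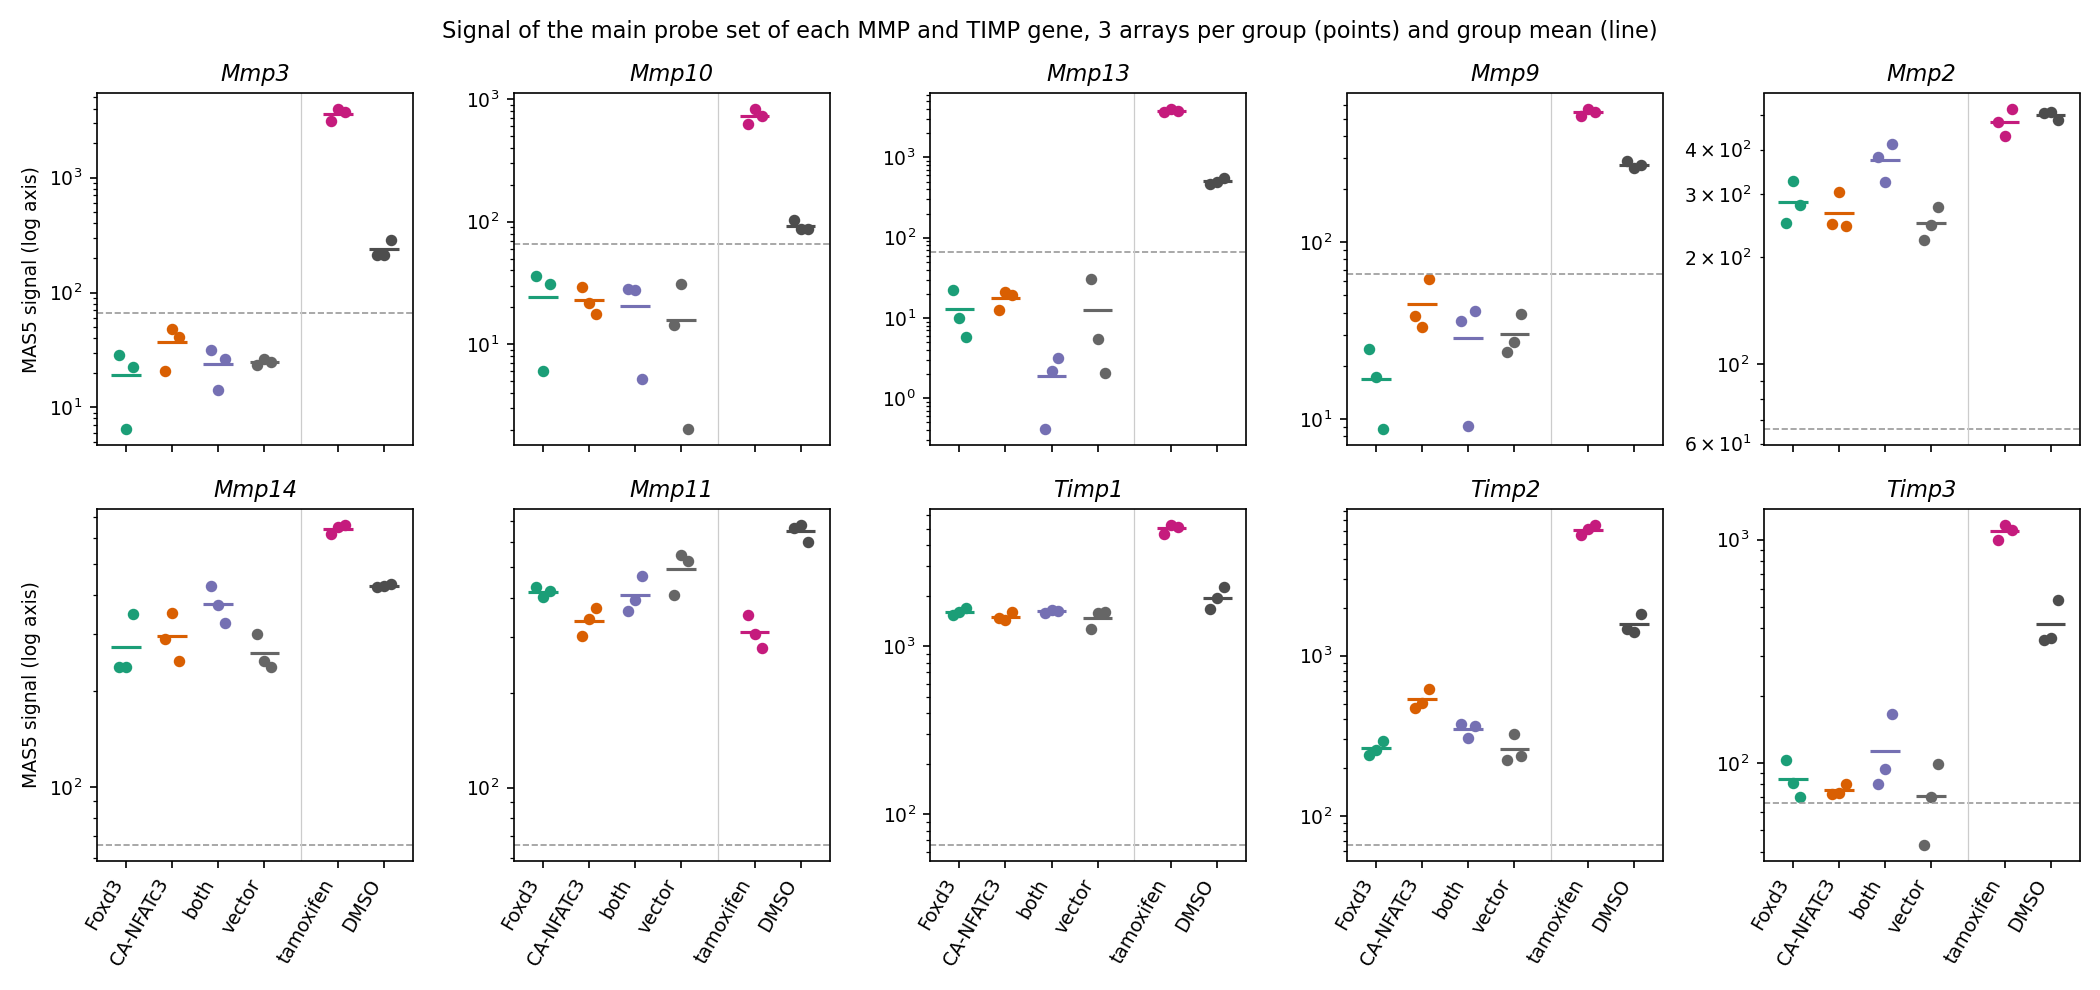
MAS5 signal (log axis) of the main probe set of each of the 10 genes, one panel per gene, with points for the 3 arrays of each group and a line for the group mean; the dashed line marks 65.8, the signal needed for testing. Mmp3, Mmp9, Mmp10 and Mmp13 lie below the dashed line in all transfected arrays and above it in all knockout arrays, and only Mmp2 shows overlapping tamoxifen and DMSO arrays.

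Tamoxifen was compared with DMSO in the knockout cells for the effect of losing Foxd3. Stromelysin-1 (Mmp3), stromelysin-2 (Mmp10), collagenase-3 (Mmp13) and all 3 TIMPs rose in the tamoxifen arrays, the gelatinase Mmp9 and the membrane-anchored Mmp14 rose less, Mmp11 fell, and Mmp2 did not pass the test. In all, 9 of the 10 genes were called, 8 higher and 1 lower. Of all 12093 genes tested, 34.4% were called (17.5% higher and 16.9% lower), and the groups did not overlap for 47.4%. The median log2 change of the 10 genes was 1.35, against -0.01 over all genes tested, whose middle 50% ran from -0.19 to 0.20. The 10 genes and the lists below were chosen with earlier results of these data known. The contrast with all genes therefore describes these lists and is not a test of them.

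The largest changes were those of 3 secreted enzymes whose genes lie close together on chromosome 9. Mmp3 (stromelysin-1, which cuts proteoglycans, fibronectin and other proMMPs; chr9:7445822-7455975) had signals of 3132, 3925 and 3746 with tamoxifen, against 211, 211 and 289 with DMSO. The groups were far apart, and Mmp3 rose 13.6-fold (log2 change 3.76 ± 0.12, adjusted p = 1.83e-09). Mmp13 (collagenase-3, which cuts fibrillar collagen; chr9:7272514-7283333) had signals of 3656, 3956 and 3750 with tamoxifen, against 461, 493 and 562 with DMSO. It rose 7.12-fold (log2 change 2.83 ± 0.08, adjusted p = 1.28e-09). Mmp10 (stromelysin-2; chr9:7502342-7510242) had signals of 628, 824 and 727 with tamoxifen, against 103, 86.7 and 87.1 with DMSO. It rose 6.08-fold (log2 change 2.60 ± 0.13, adjusted p = 5.39e-08), and its DMSO arrays lay only just above the signal needed for testing.

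These 3 genes also share features of their start regions, printed here because these genes moved most. RefSeq promoter windows of assembly GRCm38.p6, from 250 bases before to 50 after the start, were at hand for 8 of the 10 genes (not for Mmp2 and Mmp9). Each was searched on both strands for 4 motifs, and no matches overlapped in these windows. The first was TGANTCA, the AP-1 element long known from MMP promoters. Its letters were in the windows of Mmp3, Mmp10 and Mmp13, beginning 46, 63 and 35 bases before the start, and in 0 of the other 5. The same letters were in 7.81% of 32851 mouse windows. The sequences run 5′ to 3′ with the AP-1 match in capitals, at chr9:7445572-7445871, chr9:7502092-7502391 and chr9:7272264-7272563, all on the plus strand.
Mmp3: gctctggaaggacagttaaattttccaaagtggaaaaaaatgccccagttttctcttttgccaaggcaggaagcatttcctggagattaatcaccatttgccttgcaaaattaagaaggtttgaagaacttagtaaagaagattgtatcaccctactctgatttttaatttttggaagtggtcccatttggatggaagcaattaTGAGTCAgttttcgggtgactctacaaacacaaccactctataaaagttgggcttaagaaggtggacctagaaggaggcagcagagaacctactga
Mmp10: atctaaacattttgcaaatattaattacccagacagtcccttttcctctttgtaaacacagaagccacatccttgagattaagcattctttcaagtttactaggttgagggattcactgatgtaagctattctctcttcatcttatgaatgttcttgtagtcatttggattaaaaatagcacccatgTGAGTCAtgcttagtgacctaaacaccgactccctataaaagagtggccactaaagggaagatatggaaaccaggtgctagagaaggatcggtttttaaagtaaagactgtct
Mmp13: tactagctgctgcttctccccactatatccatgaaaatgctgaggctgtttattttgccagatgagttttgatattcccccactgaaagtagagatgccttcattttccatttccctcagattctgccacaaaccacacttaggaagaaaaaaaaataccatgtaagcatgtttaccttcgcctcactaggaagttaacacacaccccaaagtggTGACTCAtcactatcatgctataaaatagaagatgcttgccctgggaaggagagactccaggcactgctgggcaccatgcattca

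TATAAA, the TATA box, was in the same 3 windows, 7, 29 and 16 bases before the start of Mmp3, Mmp10 and Mmp13, and in 13.6% of all windows. TGTTTAC, a forkhead motif, lay 199 bases before the start of Mmp10 and 81 before that of Mmp13, against 3.65% of all windows. TGGAAA, the core of NFAT motifs, was found at a pair of places in Mmp3, 229 and 220 bases before the start, 146 bases before that of Mmp13 and 1 base after that of Mmp10, against 21.4% of all windows. None of the 4 motifs was found letter for letter in the windows of Mmp11, Mmp14, Timp1, Timp2 or Timp3, which were also richer in G and C. Their GC content was 55.0% to 68.7%, against 40.0% in Mmp3, 37.7% in Mmp10 and 43.7% in Mmp13, with a median of 52.7% over all windows. Timp2, whose rise is given below, serves as the example of such a window, chr11:118355362-118355661 on the minus strand. A match says only that the letters are present, and variants of a motif, such as tgagtaa in the Timp1 window, were not sought.
Timp2: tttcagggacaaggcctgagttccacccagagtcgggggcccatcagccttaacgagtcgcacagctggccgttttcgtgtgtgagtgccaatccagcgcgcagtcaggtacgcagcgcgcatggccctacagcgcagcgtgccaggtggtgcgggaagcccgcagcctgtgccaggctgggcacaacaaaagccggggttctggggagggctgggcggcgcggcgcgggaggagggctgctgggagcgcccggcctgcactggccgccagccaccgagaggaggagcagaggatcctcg

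The AP-1 letters also stood in windows of neighbouring Mmp genes, most of them dim on these arrays. The chromosome 9 cluster holds 10 Mmp genes over 427072 bases, in the order Mmp13, Mmp12, Mmp1b, Mmp3, Mmp1a, Mmp10, Mmp8, Mmp27, Mmp20 and Mmp7, of which 9 were measured. Besides the 3 genes above, Mmp12 (macrophage elastase) rose, with 691 ± 57.0 with tamoxifen against 115 ± 16.9 with DMSO (log2 change 2.30 ± 0.12, adjusted p = 1.13e-07). Mmp8 (neutrophil collagenase) averaged 82.9 with tamoxifen and 21.0 with DMSO (at least 1.26-fold higher, adjusted p = 0.00265). It passed the filter only through its tamoxifen arrays. Mmp1b, Mmp1a, Mmp20 and Mmp7 stayed under 65.8 in all knockout arrays, with highest signals of 46.0, 38.8, 50.2 and 39.1. The letters were in the windows of these 4 genes and in 1 window of Mmp12, and were not in that of Mmp8.

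**Figure D2:**
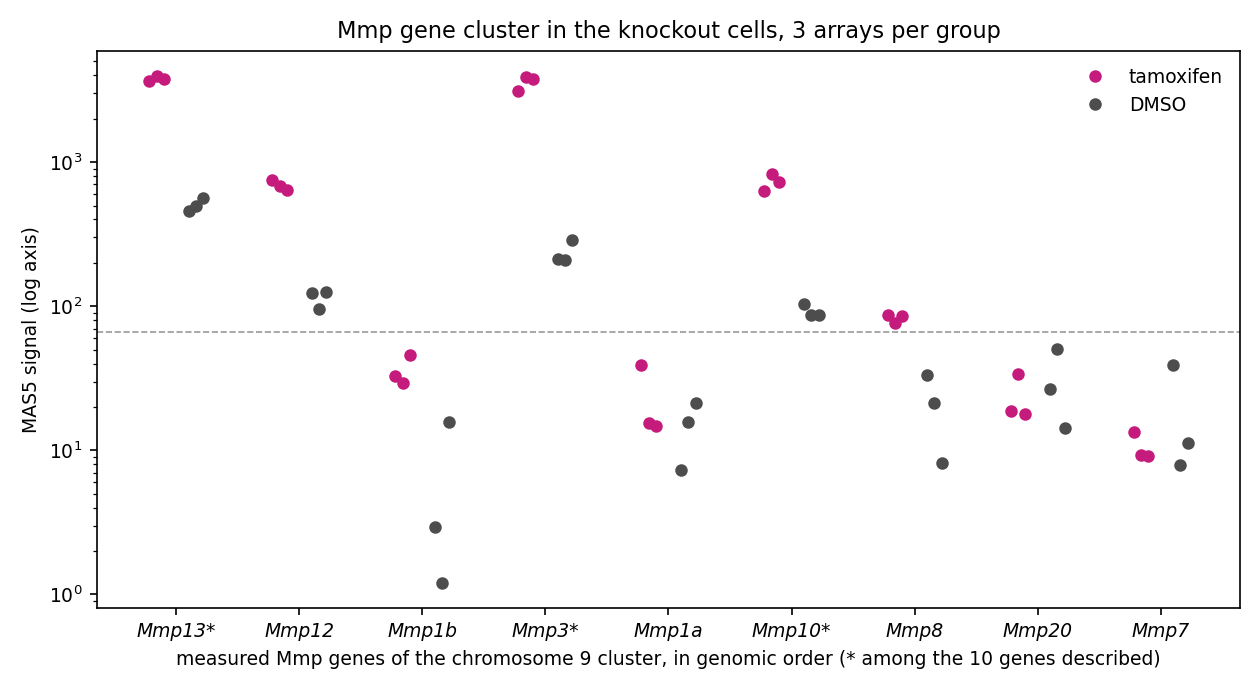
MAS5 signal (log axis) of the 9 measured Mmp genes of the chromosome 9 cluster in genomic order, with 3 tamoxifen and 3 DMSO arrays per gene; the dashed line marks 65.8. Mmp13, Mmp12, Mmp3 and Mmp10 lie above the line in both groups and far higher with tamoxifen, Mmp8 crosses it, and Mmp1b, Mmp1a, Mmp20 and Mmp7 stay under it.

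The gelatinases, which cut denatured collagen and basement membrane collagen, did not move together. Mmp9 (chr2:164940326-164955850) had signals of 519, 562 and 545 with tamoxifen, against 286, 262 and 273 with DMSO, and rose 1.88-fold (log2 change 0.91 ± 0.10, adjusted p = 2.91e-05). Its further probe set changed by 1.12 ± 0.17 (adjusted p over all probe sets = 0.000473). Mmp2 (chr8:92827290-92853421) had signals of 479, 437 and 518 with tamoxifen, against 506, 508 and 483 with DMSO. The groups overlapped, and the change was -0.06 ± 0.09 (95% interval -0.27 to 0.15, adjusted p = 0.662). The further Mmp2 probe set gave 0.09 ± 0.09 (95% interval -0.10 to 0.29, adjusted p = 0.486).

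Mmp14, the membrane-anchored activator of proMmp2 (chr14:54431598-54442456), had signals of 617, 650 and 660 with tamoxifen, against 422, 426 and 431 with DMSO. It rose 1.47-fold (log2 change 0.56 ± 0.08, adjusted p = 0.000427), and its second tested probe set rose by 1.04 ± 0.12 (adjusted p = 8.31e-05). The remaining Mmp14 probe set did not pass the filter. Mmp11 (stromelysin-3, an enzyme that is activated inside the cell and is weak against classical matrix substrates; chr10:75923221-75932502) was the only gene of the 10 that fell. Its signals were 352, 308 and 277 with tamoxifen, against 668, 679 and 602 with DMSO. The groups did not overlap, and the level was 1.98-fold lower (log2 change -0.99 ± 0.11, adjusted p = 3.49e-05).

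All 3 inhibitors rose. Timp2 (chr11:118301061-118355411) had signals of 5674, 6161 and 6540 with tamoxifen, against 1476, 1402 and 1826 with DMSO, a 3.87-fold rise (log2 change 1.95 ± 0.09, adjusted p = 3.65e-08). With the mean of all 6 Timp2 probe sets the log2 change was 1.12 (adjusted p = 7.09e-05). Timp1, a soluble inhibitor of most secreted MMPs (chrX:20870166-20874737), had signals of 4668, 5253 and 5153 with tamoxifen, against 1663, 1942 and 2239 with DMSO. It rose 2.57-fold (log2 change 1.36 ± 0.09, adjusted p = 7.02e-07). Timp3, which binds to the matrix and also inhibits ADAM and ADAMTS proteases (chr10:86300412-86349505), had signals of 996, 1160 and 1105 with tamoxifen, against 354, 364 and 537 with DMSO. It rose 2.52-fold (log2 change 1.33 ± 0.14, adjusted p = 2.19e-05).

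With tamoxifen against DMSO, the tested probe sets of one TIMP differed in size but not in direction. For Timp2, further probe sets rose by 2.10 ± 0.15 (adjusted p = 1.26e-06) and 1.83 ± 0.13 (adjusted p = 1.58e-06), a dimmer one gave 0.40 ± 0.23 (adjusted p = 0.232), and the last 2 did not pass the filter. For Timp3, further probe sets rose by 1.73 ± 0.12 (adjusted p = 9.09e-07) and 1.03 ± 0.19 (adjusted p = 0.0019). The dimmest tested one rose by 0.70 ± 0.19 (adjusted p = 0.0151), at least 1.41-fold, and passed the filter only through its tamoxifen arrays. Over all probe sets of the 10 genes, 19 of 22 were tested and 16 were called, 15 higher and 1 lower, where 28.3% of all probe sets tested were called (14.4% higher and 13.9% lower).

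**Figure D3:**
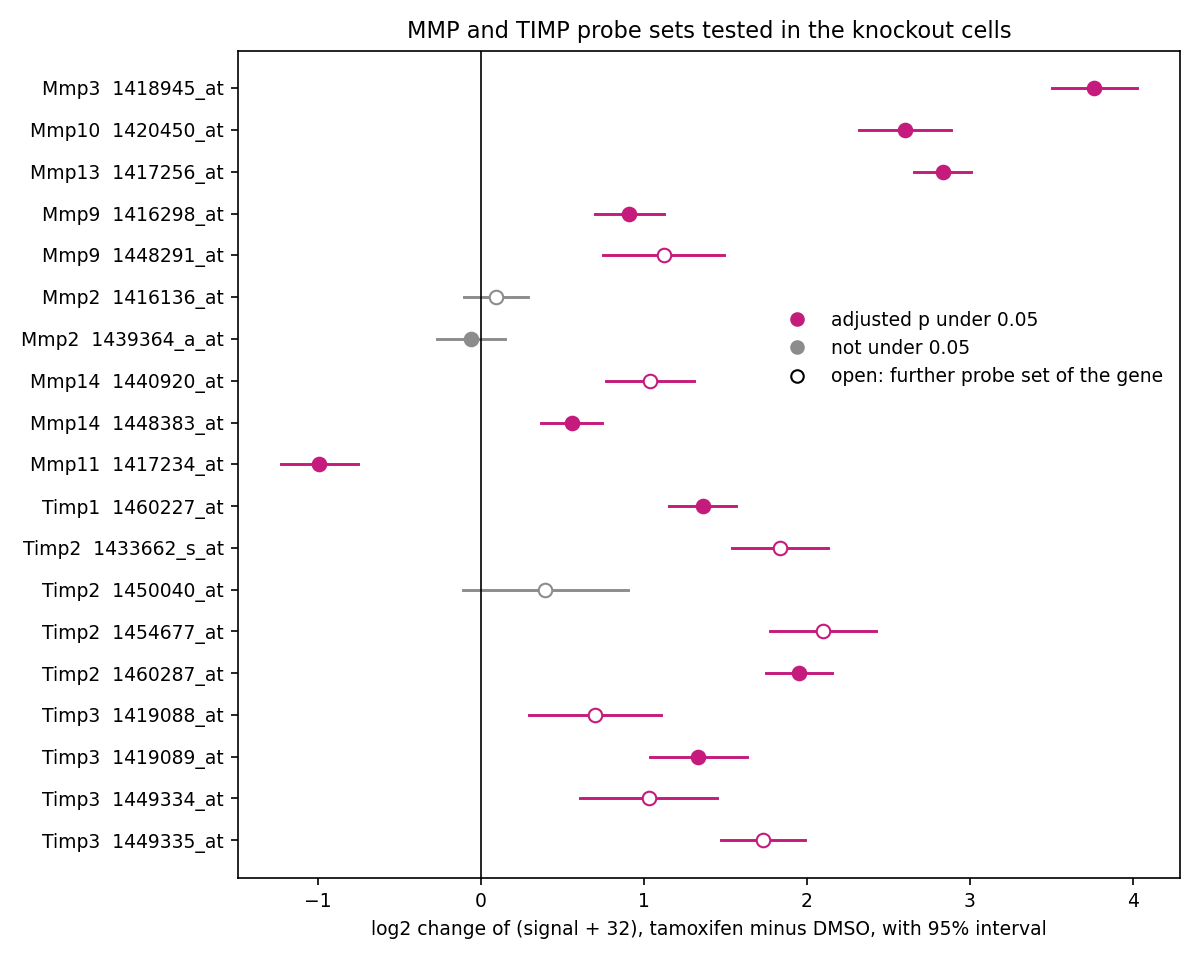
Log2 change of the signal plus 32, tamoxifen minus DMSO, with its 95% interval, for each of the 19 tested probe sets of the 10 genes; filled points are the main probe set of a gene and open points further ones, coloured where the adjusted p was under 0.05. Mmp3, Mmp13 and Mmp10 lie farthest to the right, Mmp11 alone lies to the left of 0 with an interval that leaves it out, and both Mmp2 probe sets lie at 0.

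Related gene lists were counted in the same comparison. Of 16 other MMPs, 11 were measured and 4 tested, with Mmp12 and Mmp8 higher and Mmp17 (a glycolipid-anchored MMP) lower by a log2 change of -0.54 ± 0.14 (adjusted p = 0.0124). Of 4 other metalloproteinase inhibitors, 3 were tested. Tfpi2, a Kunitz inhibitor of plasmin and some MMPs, rose by 2.76 ± 0.10 (adjusted p = 5.59e-09), and A2m, the broad plasma inhibitor alpha-2-macroglobulin, fell by 1.54 on the log2 scale (adjusted p = 5.61e-06). Among the plasminogen system and proprotein convertases, which activate proMMPs, 4 of 9 tested were higher and 0 lower. They included Serpinb2 (an inhibitor of urokinase, 2.10 ± 0.11, adjusted p = 8.15e-08), Plau (urokinase, 1.00 ± 0.16, adjusted p = 0.000709) and Pcsk5 (a proprotein convertase, at least 1.87-fold, adjusted p = 0.00574), whose DMSO mean lay under 65.8.

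Of the ADAM and ADAMTS proteases, 6 of 16 tested were higher and 1 lower, led by Adamts5 (an aggrecanase) at 1.23 ± 0.18 (adjusted p = 0.000315). Of the AP-1 and Ets factors, known regulators of MMP genes, 6 of 12 were higher and 1 lower. Fosl2 rose by 2.03 ± 0.14 (adjusted p = 8.11e-07), Ets1 by 0.75 ± 0.14 (adjusted p = 0.00166) and Fosl1 by 0.72 ± 0.17 (adjusted p = 0.00733). Of the matrix substrates, 13 of 20 were higher and 1 lower, led by Dcn (decorin, 3.54 ± 0.18, adjusted p = 6.37e-08), Col5a2 (2.82 ± 0.09, adjusted p = 1.45e-09) and Tnc (tenascin C, 2.78 ± 0.09, adjusted p = 1.92e-09). The list medians were 0.75 for other MMPs, 0.07 for other inhibitors, 0.36 for the plasminogen system and convertases, 0.22 for ADAM and ADAMTS, 0.24 for AP-1 and Ets factors and 0.69 for matrix substrates, against -0.01 over all genes tested.

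Fibroblast and macrophage markers moved in the same direction as most of the MMPs and TIMPs. All 10 fibroblast markers were higher with tamoxifen (log2 changes 1.03 to 3.54, median 2.16), and their summed signal was 18791 to 21744 with tamoxifen, against 3039 to 3745 with DMSO and 405 to 504 with the vector. With the vector, 8 of the 10 lay under 65.8, Col1a1, Col1a2, Col3a1, Pdgfra, Dcn, Lum, Postn and Fbln2. With DMSO this held for Lum only, which needed tamoxifen arrays to pass the filter, and with tamoxifen for none. Of 8 macrophage markers, 7 were tested and 7 were higher (median 1.83), with a summed signal of 8134 to 9309 with tamoxifen, against 1631 to 1802 with DMSO and 345 to 447 with the vector. Itgam lay under 65.8 in all groups. Ptprc and Aif1, with Itgam, had means under it with DMSO. Those of them that were tested needed tamoxifen arrays to pass the filter. Lyz2 alone averaged 6045 with tamoxifen and 1001 with DMSO.

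Stem cell markers were lower for 5 of 10 and higher for 0 (median -0.17), with Fgf4, an autocrine growth factor of stem cells, at -1.50 ± 0.11 (adjusted p = 9.90e-07). Primitive and parietal endoderm markers were higher for 3 of 8 tested and lower for 0, and trophoblast markers were higher for 1 of 8 (Tfap2c, 1.22 ± 0.08, adjusted p = 4.32e-07) and lower for 3. As a measure of RNA quality, the 3′/5′ signal ratio for actin was 1.89 ± 0.00310 with tamoxifen and 2.15 ± 0.0884 with DMSO, and that of Gapdh was 1.02 ± 0.0144 with tamoxifen and 1.01 ± 0.0309 with DMSO. The part of other cell types or of RNA quality in the changes of the 10 genes was not tested. Among the fibroblast markers 4 also stand in another list, as do 4 of the 11 primitive and parietal endoderm markers. Col4a1, for one, is also counted as a matrix substrate.

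**Figure D4:**
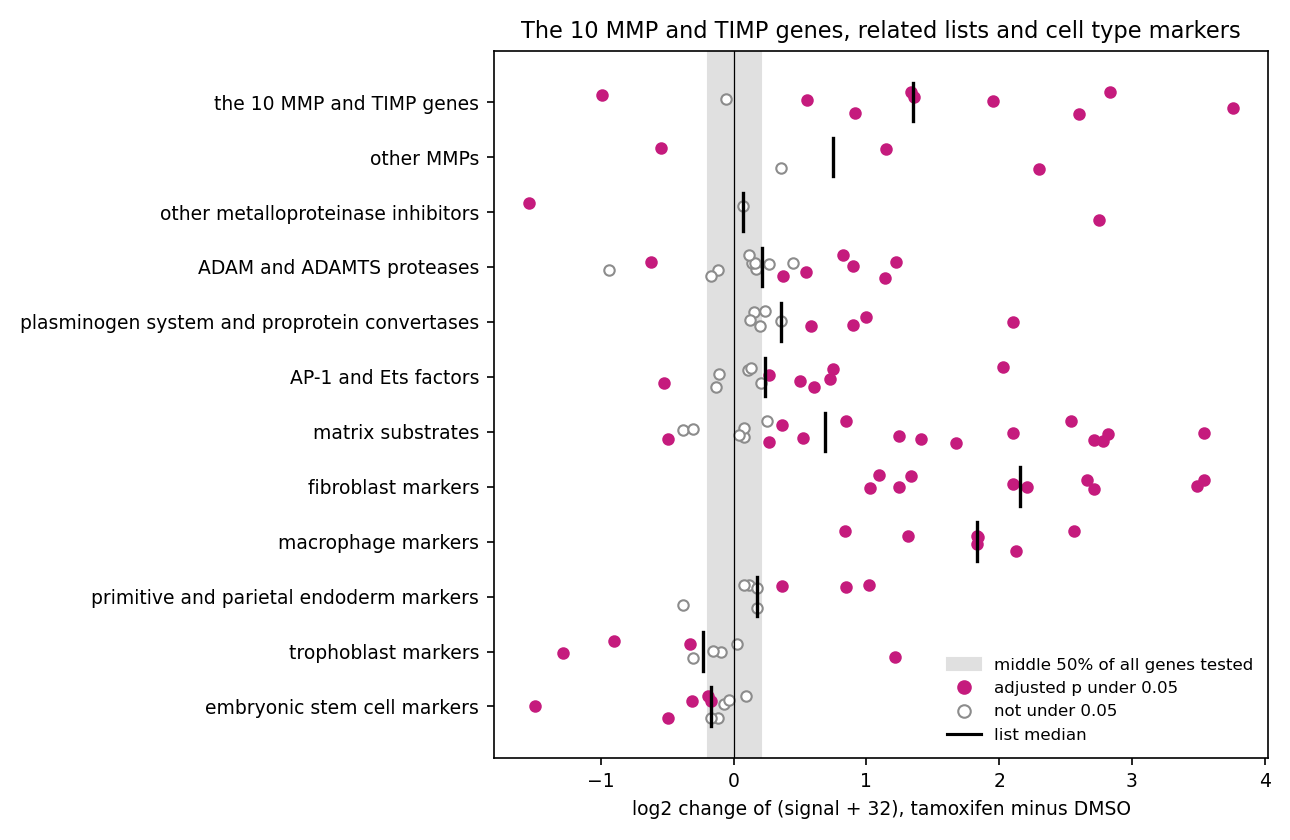
Log2 change of the signal plus 32, tamoxifen minus DMSO, of each tested gene of the 10 MMP and TIMP genes, of related lists and of cell type markers; filled points had an adjusted p under 0.05, black bars are list medians, and the grey band is the middle 50% of all genes tested. The median of the 10 genes is 1.35, against 2.16 for fibroblast markers, 1.83 for macrophage markers and -0.17 for stem cell markers.

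The arrays labelled CA-NFATc3 were compared with those of the vector, the question being the effect of active NFATc3. The inhibitor Timp2 rose and the proteinase Mmp11 fell, and the other 4 tested genes did not pass. Of the 6 tested genes 2 were called, 1 higher and 1 lower, where 5.86% of all 11609 genes tested were called (4.62% higher and 1.24% lower). The median change of the 6 was 0.09, against 0.00 over all genes.

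Timp2 had signals of 474, 510 and 617 with CA-NFATc3, against 225, 322 and 236 with the vector. The groups did not overlap, as for 20.0% of all genes, and Timp2 rose 1.94-fold (log2 change 0.96 ± 0.14, 95% interval 0.65 to 1.26, adjusted p = 0.000468). With the mean of all its probe sets the log2 change was 0.57 (adjusted p = 0.0285). A second probe set had signals of 194, 284 and 219 with CA-NFATc3, against 109, 102 and 114 with the vector, and rose by 0.90 ± 0.15 (adjusted p over all probe sets = 0.00208). One more changed by 0.81 ± 0.27 (adjusted p = 0.141), and its vector mean lay under 65.8. Mmp11 had signals of 301, 342 and 372 with CA-NFATc3, against 408, 546 and 524 with the vector. It was 1.41-fold lower (log2 change -0.50 ± 0.13, adjusted p = 0.0291). The Mmp11 call was lost without vector replicate 2 or 3 or CA-NFATc3 replicate 1 or 2 (adjusted p up to 0.129), and when only these 2 groups entered the fit (adjusted p = 0.0626).

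Changes of the remaining genes with CA-NFATc3 were 0.08 for Mmp2 (adjusted p = 0.852), 0.15 for Mmp14 (adjusted p = 0.737), 0.03 for Timp1 (adjusted p = 0.940) and 0.10 for Timp3 (adjusted p = 0.909). In the related lists, 4 of 13 ADAM and ADAMTS genes were higher and 0 lower, among them Adamts9 (1.21 ± 0.20, adjusted p = 0.00111) and Adam19 (0.52 ± 0.10, adjusted p = 0.00364). Plat (tissue plasminogen activator, at least 1.35-fold, adjusted p = 0.0215) and Plaur (the urokinase receptor, 0.73 ± 0.17, adjusted p = 0.0176) were higher among 6 of the plasminogen system and convertases. Elk3 (1.45 ± 0.14, adjusted p = 7.94e-06) and Jun (1.12 ± 0.17, adjusted p = 0.000606) were higher among 9 AP-1 and Ets factors, and 5 of 14 matrix substrates were higher, led by Col4a1 (2.97 ± 0.13, adjusted p = 1.08e-09).

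Markers of trophoblast were higher for 4 of 8 tested with CA-NFATc3 and lower for 0, with a summed signal of 5024 to 5353 with CA-NFATc3 against 3429 to 4055 with the vector. Endoderm markers were higher for 3 of 8, with summed signals of 9200 to 11419 with CA-NFATc3 against 6255 to 7156 with the vector. Col4a1 alone averaged 2713 with CA-NFATc3 and 314 with the vector. Of the called markers, Elf5 (trophoblast) and Sox17 (endoderm) had means above 65.8 only with CA-NFATc3 among the transfected groups. Fibroblast markers had 1 of 4 tested higher, Col3a1 (at least 3.29-fold), whose vector mean lay under 65.8. The other 3 tested did not pass, and the rest of the 10 were too dim to test. Macrophage markers had 0 of 2 higher. Their part in the Timp2 and Mmp11 changes was not tested.

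The arrays labelled with both plasmids were compared with those of CA-NFATc3 for what Foxd3 adds to active NFATc3. Timp2 was lower with both, and 1 of 6 tested genes was called, where 6.12% of all genes were called (2.44% higher and 3.69% lower). Timp2 had signals of 373, 306 and 362 with both, against 474, 510 and 617 with CA-NFATc3. The groups did not overlap, as for 20.4% of all genes, and Timp2 was 1.49-fold lower (log2 change -0.57 ± 0.14, adjusted p = 0.0233). Its further probe sets changed by -0.33 (adjusted p = 0.335) and -0.44 (adjusted p = 0.515). The call was lost without CA-NFATc3 replicate 2 or 3 or both replicate 2 or 3 (adjusted p up to 0.141) and with the mean of a gene's probe sets (adjusted p = 0.272).

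Mmp2 had a change of 0.45 ± 0.14 between both and CA-NFATc3 that did not pass (adjusted p = 0.0661), while its further probe set rose by 0.58 ± 0.15 (adjusted p = 0.0385). With the replicate number as a block, Mmp2 passed as well (adjusted p = 0.0389). With the mean of a gene's probe sets Mmp2 passed (0.51, adjusted p = 0.0134) and Timp2 did not, so that the call was on another gene.

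Some endoderm and trophoblast markers were lower with both than with CA-NFATc3. Endoderm markers were lower for 3 of 8 tested and higher for 0, namely Col4a1 (-1.75 ± 0.13, adjusted p = 9.21e-07), Sox7 (-0.81 ± 0.20, adjusted p = 0.0225) and Sox17 (at least 2.04-fold lower, adjusted p = 0.0275). Their summed signal was 7572 to 8473 with both, against 9200 to 11419 with CA-NFATc3. Trophoblast markers were lower for 4 of 8 and higher for 0, with a summed signal of 3374 to 3560 with both, against 5024 to 5353 with CA-NFATc3. Elf5 among these, and Sox17, had means above 65.8 only with CA-NFATc3 among the transfected groups. Fibroblast markers had a median change of 0.04 over 4 tested, with Col1a2 higher (at least 4.80-fold, adjusted p = 0.000113) and Col3a1 at -0.69 ± 0.22 (adjusted p = 0.0783). Of the matrix substrates, 4 of 14 were lower and 1 was higher, and of the macrophage markers 0 of 2 passed. Their part in the Timp2 and Mmp2 changes was not tested.

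Against the vector, both plasmids together gave 1 call of 6, the gelatinase Mmp2, where 4.82% of all genes were called (3.48% higher and 1.34% lower). Mmp2 had signals of 381, 324 and 415 with both, against 223, 246 and 276 with the vector (log2 change 0.53 ± 0.14, adjusted p = 0.0352). Its further probe set had signals of 350, 372 and 341 with both, against 156, 239 and 241 with the vector, a rise of 0.68 ± 0.15 (adjusted p = 0.0182). In neither probe set did the groups overlap, which held for 22.3% of all genes. The call on the main probe set was lost without vector replicate 1, 2 or 3 or both replicate 1 or 3 (adjusted p up to 0.150).

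Mmp14 had signals of 425, 370 and 326 with both, against 300.1, 249 and 237 with the vector. These groups did not overlap, which held for 22.3% of all genes, and the change of 0.46 ± 0.16 did not pass (adjusted p = 0.128). In the second tested Mmp14 probe set the groups overlapped, with a change of 0.12 ± 0.17 (adjusted p over all probe sets = 0.819). Timp2 stood at 0.38 ± 0.14 (adjusted p = 0.167), Timp3 at 0.49 ± 0.24 (adjusted p = 0.306), Mmp11 at -0.25 ± 0.13 (adjusted p = 0.327) and Timp1 at 0.13 ± 0.09 (adjusted p = 0.499). Further Timp2 probe sets gave 0.57 ± 0.15 (adjusted p over all probe sets = 0.0602) and 0.37 ± 0.27 (adjusted p = 0.589). Those of Timp3 differed in direction, with 0.49 ± 0.24 (adjusted p = 0.369) and -0.63 ± 0.44 (adjusted p = 0.570). The median over the 6 genes was 0.42, against 0.00 over all genes tested.

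Fibroblast markers had 2 of 4 tested higher with both than with the vector, Col1a2 and Col3a1. The vector means of these genes, 27.2 and 18.1, lay under 65.8 (at least 4.80-fold and 1.85-fold higher with both). Only 4 of the 10 fibroblast markers passed the filter, which a marker dim with the vector can do only through other groups. The summed signal of all 10 was 907 to 967 with both, against 405 to 504 with the vector. Endoderm markers were higher for 3 of 8 and lower for 0, namely Col4a1 (1.21 ± 0.13, adjusted p = 4.44e-05), Sparc (0.53 ± 0.12, adjusted p = 0.0149) and Dab2 (at least 2.10-fold, adjusted p = 0.00278). Their summed signal was 7572 to 8473 with both, against 6255 to 7156 with the vector. Of 8 trophoblast markers, Krt18 was higher (0.64 ± 0.13, adjusted p = 0.00987) and Tfap2c lower (-0.37 ± 0.10, adjusted p = 0.0444), and 0 of 2 macrophage markers passed. Of the matrix substrates, 6 of 14 were higher, Col1a2 and Col3a1 among them, and 1 was lower. The part of these markers in the Mmp2 change was not tested.

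The arrays labelled Foxd3, set against the vector arrays, gave 0 calls among the 6 tested genes with limma, and 0 of their main probe sets had an unadjusted p under 0.05, where 2.88% of all genes were called. Changes of the main probe sets lay between -0.21 (Mmp11, adjusted p = 0.493) and 0.21 (Timp3, adjusted p = 0.766). Further Timp3 probe sets gave -0.22 (adjusted p over all probe sets = 0.904) and -0.20 (adjusted p = 0.832). Timp2 was at 0.03 (95% interval -0.27 to 0.33), Timp1 at 0.12 (-0.07 to 0.31) and Mmp14 at 0.05 (-0.30 to 0.39). The Mmp2 probe sets gave 0.17 (adjusted p = 0.631) and 0.48 ± 0.15 (adjusted p = 0.144). The unadjusted limma p of the second of these, 0.00516, was the only one under 0.05 among the 12 tested probe sets.

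Both against Foxd3 also gave 0 calls among 6, where 0.327% of all genes were called. An unadjusted p under 0.05 was reached by the main probe sets of 3, Mmp2 (0.36), Mmp14 (0.42) and Timp2 (0.35), with adjusted p between 0.601 and 0.634. The share of all genes under it was not counted here either. The interaction, which asks whether both minus CA-NFATc3 differs from Foxd3 minus vector, called 0 of 6, against 0.810% of all genes. Timp2 had the largest term (-0.60 ± 0.20, adjusted p = 0.281), followed by Mmp11 (0.46 ± 0.18, adjusted p = 0.440), and these 2 had an unadjusted p under 0.05. The comparisons of transfected cells share arrays, so that their changes are not independent of each other.

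**Figure D5:**
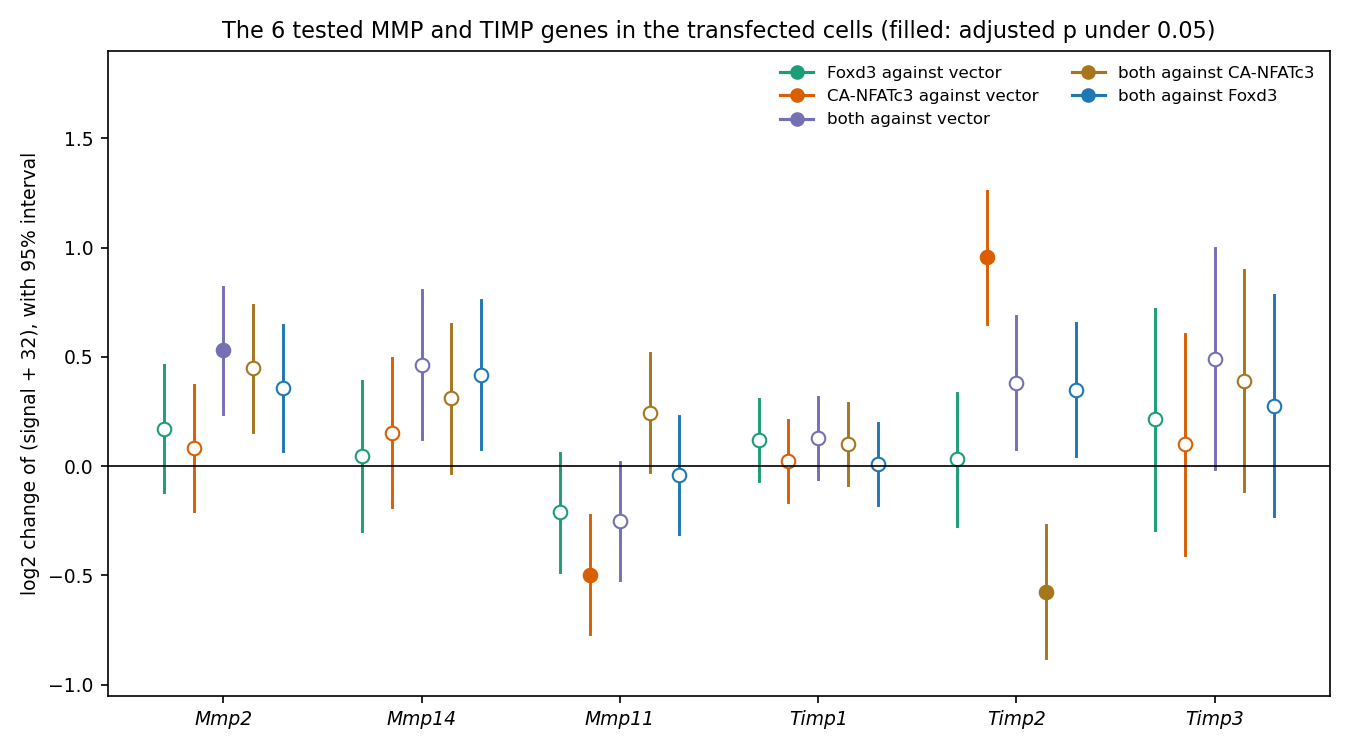
Log2 change of the signal plus 32 with its 95% interval for the 6 MMP and TIMP genes tested in the transfected cells, in 5 comparisons that share arrays; filled points had an adjusted p under 0.05. Timp2 with CA-NFATc3 against vector (0.96) and with both against CA-NFATc3 (-0.57), Mmp11 with CA-NFATc3 (-0.50) and Mmp2 with both against vector (0.53) are the filled points.

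For the genes called in the transfected cells, the genes most like them were taken as those with the smallest mean absolute difference of log2 values over the 12 arrays, each gene centred on its mean. For Timp2 these were Sfmbt2 (0.104) and Snx7 (0.107), against a median of 0.367 over all genes. For Mmp2 they were Fzd10os (0.0556) and Tnfaip6 (0.0937), with a median of 0.244. For Mmp11 they were 1110032A03Rik (0.0719) and Ccdc28a (0.0748), with a median of 0.221.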

How the data were processed

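Total RNA of 18 samples was hybridised to Affymetrix mouse arrays, 1 sample per array, per the labels. The deposited values are a linear intensity for each probe set; MAS5, with no version, is named in the submitters' processing notes. The scaling was read from the values: without the lowest and highest 2%, each array averaged 500. Detection calls and background were not used here. Gene symbols came from the platform annotation (34945 probe sets with 1 symbol, 932 with several, 9160 with none, 64 controls), and all 10 genes were found in the RefSeq table of GRCm38.p6, the source of positions and promoter windows.

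A gene was represented by its brightest probe set on average (log2). Genes with a signal of 65.8 (the median of all values) in at least 3 arrays entered a two-sided limma test (version 3.58.1, R 4.3.3, eBayes with trend) on log2(signal + 32), separately for 12 transfected arrays (11609 genes) and 6 knockout arrays (12093 genes), without covariates, and p-values were adjusted over all genes tested. The same fit over all probe sets (23595 and 24490) gave the further probe sets. Where the dimmer group's mean lay under 65.8, an "at least" fold raises that group's arrays to no less than 65.8. The fits were tested on simulated data. Plots used matplotlib 3.10.9 (Python 3.11.15). The 10 genes and the lists were chosen with earlier results of these data known. Named besides the 10 genes were at most the 3 called genes with the largest change per list and comparison, and the 2 genes most like each gene called in transfected cells.

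Replicate numbers come from the sample titles. In the transfected cells the residuals of all 18 pairs of arrays with equal numbers correlated at 0.104 to 0.315, and those of 36 pairs with different numbers at -0.282 to 0.0133, so the numbers were taken to pair the samples. The main tests left this pairing out, and the fits with the replicate block, given below, use it. At most 0.00443% of values were identical between 2 arrays. Alternatives were the offset, the filter, quantile normalization, the mean of probe sets, the probe set level, all 18 arrays or only 2 groups in the fit, the replicate block, array weights, no variance trend and leaving out each array.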

Additional observations from a re-analysis of the deposited data

How the results depend on the processing

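Over 13 settings and 18 omissions of 1 array, the 46 log2 changes of the 10 genes were recomputed as 1068 values; 1047 stayed on the same side of the threshold, 17 lost the call and 4 gained one. The sign changed in 19 of the 1047, over 10 changes of at most 0.18 that were not called in either setting, and in 0 values where one was called. With tamoxifen 9 of the 10 genes were called in every setting, Timp2 at a log2 change of 1.12 to 2.06, and Timp2 with CA-NFATc3 was called in all 25 (log2 0.57 to 1.10). Foxd3 against vector, both against Foxd3 and the interaction gave 0 calls in every setting. For CA-NFATc3 against vector, 1 of the 2 calls was left with only the 2 groups in the fit, and 1 to 2 without single arrays. Both against vector gave 0 calls with no signal filter (Mmp2 adjusted p = 0.0619) and with only the 2 groups (adjusted p = 0.0536), and 0 to 1 without single arrays. Both against CA-NFATc3 gave 2 calls with all 18 arrays in 1 fit, with the replicate block and with array weights (Timp2 and Mmp2), 1 with the mean of a gene's probe sets (Mmp2, adjusted p = 0.0134, in place of Timp2), and 0 to 1 without single arrays. The 2-group fits and omissions hold fewer arrays, and more genes were tested without the filter; the cause of the other shifts was not tested.

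With the replicate number as a block, all genes called were 783 for Foxd3 (334 without the block), 1104 for CA-NFATc3 (680), 1122 for both against vector (559), 1258 for both against CA-NFATc3 (711), 96 for both against Foxd3 (38) and 245 for the interaction (94); the block changed no other call of the 10 genes. In the knockout cells the numbers did not pair the arrays (same-number correlations -0.0425 to 0.0152). Other counts over all genes that moved by over 1.5 times were 552 for Foxd3 and 172 for the interaction with array weights, 63 for both against Foxd3 and 161 for the interaction with all 18 arrays, 343 for both against vector with the mean of probe sets, and 6932 called probe sets for 4165 genes with tamoxifen. Without single arrays the lowest counts were 158 for Foxd3, 349 for CA-NFATc3, 322 for both against vector, 385 for both against CA-NFATc3, 22 for both against Foxd3 and 48 for the interaction. Signals below 65.8 limit Mmp3, Mmp9, Mmp10 and Mmp13 in the transfected cells, where no change could be tested.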
